A study of Mus musculus with 6 samples.

Results

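Acute phase genes encode proteins whose production rises within hours of injury or infection, mainly in the liver but also locally in stromal and epithelial cells. The 9 genes described here belong to this system: the acute phase genes Saa3, Lcn2, C3 and Hp, and the CCAAT/enhancer-binding protein (C/EBP) genes Cebpa, Cebpb, Cebpd, Cebpg and Cebpz. They were taken by symbol, and all 9 of 9 were found among the 22246 genes of the expression table. The genes were selected on FPKM values of this same comparison, so their levels and changes are a description, with no test, and support nothing by themselves.

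C/EBP proteins are transcription factors with a basic leucine zipper, a domain that pairs as dimers and reads short palindrome-like sites. Cytokines of the interleukin-6 and interleukin-1 families raise C/EBPbeta and C/EBPdelta, which act with STAT3 and NF-kB at acute phase promoters. C/EBPalpha is known for differentiation of liver, fat and myeloid cells, and C/EBPgamma lacks an activation domain and forms heterodimers with other C/EBP and ATF proteins. Cebpz carries a similar name for another reason: it encodes a CCAAT-binding protein without a leucine zipper that is the counterpart of a yeast ribosome assembly factor.

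The samples were cultures of HL-1, an established line of mouse atrial cardiomyocytes from C57BL/6 according to the labels. One group of 3 libraries received a control short hairpin RNA (shRNA), which directs no named target, and the other group of 3 received an shRNA against Smyd4, a lysine methyltransferase family gene. The labels name no time point, no vector and no clone, and do not state whether separate cultures were used. P-values therefore measure only the spread between these libraries, which may be technical. Levels are in FPKM, which counts fragments against gene length and library depth.

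Between 20755856 and 26387606 reads per library were assigned to genes. Smyd4 mRNA, the target, stood at 12.9 ± 0.539 FPKM (SD, n = 3) in the controls and 12.3 ± 0.348 FPKM (SD, n = 3) in the other group (limma, Benjamini-Hochberg adjusted p = 0.173), which goes against the label, so that group is called the libraries labelled Smyd4 shRNA, or the labelled libraries. Of 16 atrial cardiomyocyte markers listed, 13 were found, and 5 of these were under 0.1 FPKM in every library. Of the atrial myosin genes, Myh6 had 0 to 5 reads per library, Myl7 0 to 2 and Myl4 16 to 26, while Gja1 stood at 146 and 145 FPKM and Tnnt2 at 7.11 and 11.7 FPKM in the control and labelled groups. Of the 5 markers tested, 3 passed as higher, 1 as lower and 1 did not pass (limma, adjusted p under 0.05). Over all genes tested, 25.1% passed as higher and 23.3% as lower. Nppb fell from 2.15 to 0.484 FPKM and Nkx2-5 rose from 3.57 to 7.68 FPKM (limma, adjusted p = 0.000961 and 0.000215). Tnnt2 and Gata4 were also called higher (limma, adjusted p = 6.2e-06 and 0.0314). Gata4, at 8.09 and 8.88 FPKM, was not called under 7 of 14 alternative settings. Nppb reached the mean of 1 FPKM needed for the test through its control values alone.

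The third labelled library stood apart in one respect that touches the acute phase genes. It held 23 genes with at least 10 reads that had 0 reads in the other labelled libraries, and Lcn2 was among them; the same count was 0 or 1 in each of the other 5 libraries. The 23 included the surfactant and secretoglobin genes Sftpa1, Sftpd and Scgb3a2 of airway and alveolar epithelium, the haemoglobin gene Hbb-bs, the immunoglobulin gene Igkc, the endothelial genes Cldn5 and Kdr and the smooth muscle gene Myh11. Of 14 airway and alveolar markers, a list drawn up after this was seen, all 14 had reads in the third labelled library, with 921 reads and 64.2 FPKM in sum. The other 5 libraries held 13 to 36 reads and 0.469 to 1.47 FPKM in sum. Sftpa1, Sftpd, Scgb3a2, Bpifa1 and Lamp3 had 0 reads in all of those 5. The secretoglobin gene Scgb1a1 had 410 reads in the third labelled library against 1 to 14 elsewhere, and the surfactant gene Sftpc 265 against 0 or 1. Scgb1a1 and Sftpc thus held most of the 921 reads. Napsa had 4 reads against 0 to 2 elsewhere. Foxj1, at 3 reads against 3 to 8 elsewhere, was not higher in the third labelled library. Results that rest on this library are given with and without it.

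Of the 9 genes, 7 reached a mean of 1 FPKM over the 6 libraries and entered the test across all genes, while Lcn2 and Hp did not. Among the 7, 5 passed as lower in the labelled libraries, 1 passed as higher and 1 did not pass (limma on log2(FPKM + 0.5), Benjamini-Hochberg adjusted p under 0.05). Over all 11325 genes tested, 48.3% passed, 23.3% as lower and 25.1% as higher, and nothing is read from the count of members because the comparison chose them. Saa3 and C3 passed the filter through their control values alone. The groups did not overlap for 8 of the 9 genes, Cebpz being the exception. Non-overlap was found in 57.8% of genes tested and in 38.7% of all genes in the table. By size of change, Saa3 stood in position 1 from the lowest of 11325 genes, C3 in position 5 and Cebpd in position 17. Cebpa (796), Cebpb (1002) and Cebpg (581 from the highest) lay farther in.

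**Figure D1:**
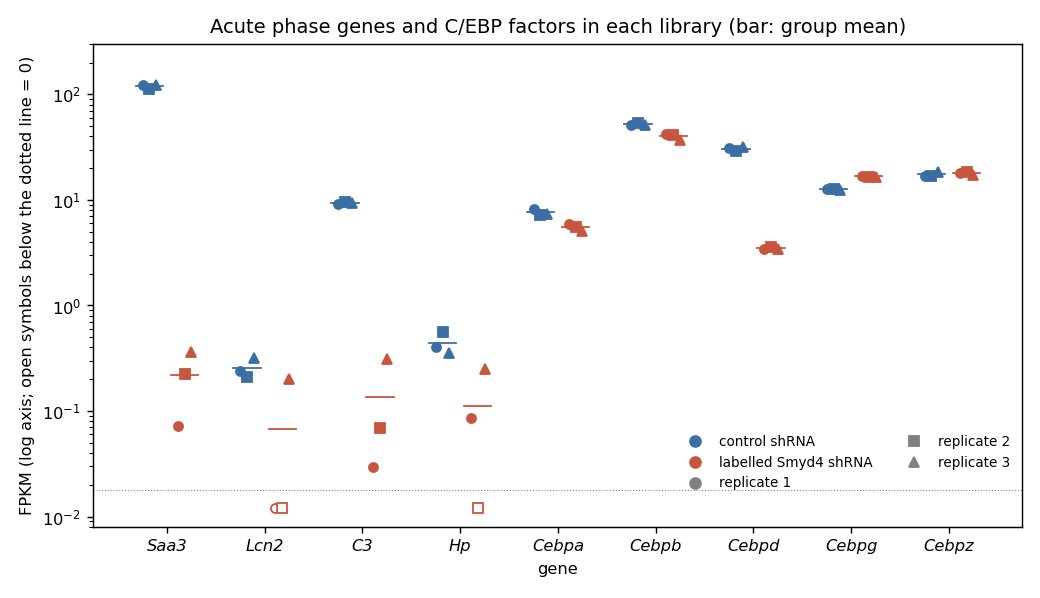
FPKM of the 9 genes in each library on a log axis, with symbols for replicates, bars for group means and open symbols below the dotted line for values of 0. The groups lie farthest apart for Saa3 (119 and 0.220 FPKM on average), then C3 (9.38 and 0.136 FPKM) and Cebpd (30.4 and 3.48 FPKM), and the Cebpz groups overlap.

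The acute phase genes were all lower in the labelled libraries. Saa3 and C3 were well expressed in the controls and had 1 to 4 and 4 to 33 reads per labelled library. Lcn2 and Hp fell from a low level. Upstream sequence of Saa3 and C3, the genes with the largest differences, is shown with that of Cebpg, the gene that differed in the other direction. The sequences are from RefSeq on GRCm38.p6, on the strand of the gene, and end where the GENCODE M21 gene model begins. Capitals mark matches, on either strand, to TTGCNNAA (a C/EBP site), GGGA and CC with any 4 bases between (NF-kB) and CCAAT (the CCAAT box). Searches for TTCNNNGAA (STAT) and TGATGNAA (the composite of C/EBP and ATF factors) found none in these windows.
Saa3, chr7:46715701-46715926, minus strand: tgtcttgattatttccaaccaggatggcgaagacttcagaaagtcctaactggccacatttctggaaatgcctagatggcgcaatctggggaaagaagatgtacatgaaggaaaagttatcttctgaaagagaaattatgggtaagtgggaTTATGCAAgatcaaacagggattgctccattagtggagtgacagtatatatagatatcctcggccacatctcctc
C3, chr17:57228137-57228386, minus strand: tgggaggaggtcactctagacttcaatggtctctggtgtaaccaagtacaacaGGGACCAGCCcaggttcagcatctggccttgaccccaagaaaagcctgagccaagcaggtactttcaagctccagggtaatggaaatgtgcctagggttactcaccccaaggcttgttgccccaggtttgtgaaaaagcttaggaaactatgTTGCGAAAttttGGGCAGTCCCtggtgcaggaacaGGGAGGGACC
Cebpg, chr7:35056574-35056816, minus strand: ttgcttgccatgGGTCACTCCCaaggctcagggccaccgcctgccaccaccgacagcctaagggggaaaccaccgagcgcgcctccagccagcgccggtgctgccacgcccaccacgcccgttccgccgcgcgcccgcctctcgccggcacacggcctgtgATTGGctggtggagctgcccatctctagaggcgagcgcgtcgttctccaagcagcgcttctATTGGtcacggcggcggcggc

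RefSeq windows from 250 bases before to 50 after the start site were found for 6 of the 9 genes, with none for Hp, Cebpd and Cebpz. Each of the 3 acute phase genes with a window held 1 C/EBP match: TTATGCAA at -99 to -92 in Saa3, TTGCTCAA at -216 to -209 in Lcn2 and TTGCGAAA at -45 to -38 in C3, counted from the RefSeq start site. None of the 3 C/EBP genes with a window held this match, and 10.8% of 32817 mouse promoter windows of the same length did. NF-kB letters occurred 3 times in C3, once in Cebpb and once in Cebpg, and in 20.7% of all windows. The match at -33 to -24 in C3 follows its C/EBP match by 4 bases and does not overlap it. CCAAT occurred only in Cebpg among the 6, at -89 to -85 and -28 to -24, against 37.4% of all windows. STAT letters were found in 8.29% and the composite in 3.97% of all windows, and in none of the 6. A match of letters is a description and not a measured site.

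Saa3 (ENSMUSG00000040026; chromosome 7, 46711998 to 46715700, minus strand, GRCm38, protein coding) encodes a serum amyloid A made outside the liver. Its control values were 122, 113 and 123 FPKM, and the labelled libraries held 0.0721, 0.224 and 0.364 FPKM. These are 0.0603%, 0.187% and 0.305% of the control mean, from 1, 3 and 4 reads against 1428 to 1655. The gene went from place 440 to place 14051 among 22246 genes ordered by mean level. The mean was 544-fold lower. The log2 change was -7.40 (SE 0.13), or -7.54 without the third labelled library.

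C3 (ENSMUSG00000024164; chromosome 17, 57203970 to 57228136, minus strand, protein coding) encodes complement component 3, the protein on which all complement pathways converge. The controls held 9.13, 9.6 and 9.40 FPKM, within a coefficient of variation of 2.54%. The labelled libraries held 0.0298, 0.0692 and 0.310 FPKM, from 4, 9 and 33 reads against 1123 to 1226. No labelled value came near a control value, but the labelled libraries differed widely among themselves, at 0.317%, 0.739% and 3.31% of the control mean. The mean was 68.8-fold lower, and 189-fold lower without the third labelled library, where the airway markers were also high. On the log2 scale the change was -3.98 (SE 0.15), or -4.17 without that library. The part of the airway marker RNA in the remaining C3 reads was not tested.

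Lcn2 (ENSMUSG00000026822; chromosome 2, 32384633 to 32388252, minus strand, protein coding) encodes lipocalin 2, which withholds iron from bacteria by binding their siderophores. It was low throughout, at 0.239, 0.209 and 0.316 FPKM in the controls, from 15, 13 and 21 reads. In the labelled libraries it was at 0, 0 and 0.203 FPKM, from 0, 0 and 11 reads. The lowest control value lay just above the third labelled value, at 0.209 against 0.203 FPKM. Without the third labelled library Lcn2 was at least 5.72-fold lower, counting 3 reads in each labelled library as the most that 0 reads allow. Whether the airway marker RNA of the third library took part in its 11 reads was not tested.

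Hp (ENSMUSG00000031722; chromosome 8, 109575128 to 109579172, minus strand, protein coding) encodes haptoglobin, the plasma protein that binds free haemoglobin. Its control values were 0.405, 0.566 and 0.352 FPKM, from 12 to 18 reads. The labelled values were 0.0855, 0 and 0.252 FPKM, from 3, 0 and 7 reads, and the highest again belonged to the third library. Without it the labelled mean was 0.0427 FPKM against 0.112 FPKM. In edgeR's quasi-likelihood test on recovered reads, Hp and Lcn2 were both called lower, which only describes them because this comparison chose them. That test called 49.5% of 13775 genes, 26.3% as lower. In limma without a filter on low values Hp was called lower and Lcn2 was not called, against 13.7% of 22246 genes called lower. Counts this small leave the size of either change uncertain.

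**Figure D2:**
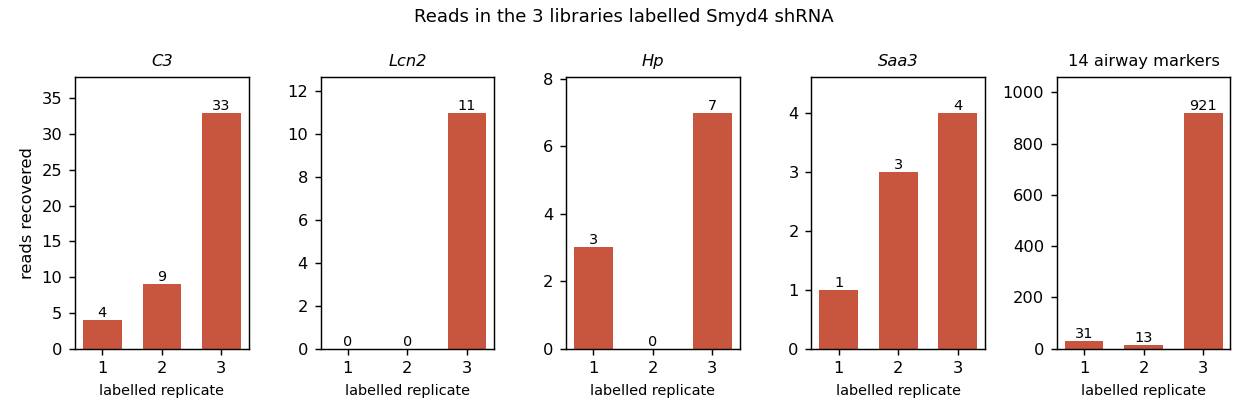
Reads recovered in labelled replicates 1, 2 and 3 for C3, Lcn2, Hp and Saa3 and summed over 14 airway markers, each panel with its own linear axis from 0. C3 (33 reads), Lcn2 (11) and the airway markers (921) are far higher in replicate 3 than in the other labelled replicates, while Saa3 has 1 to 4 reads in all 3.

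Among the C/EBP factors, Cebpd differed most, Cebpa and Cebpb were moderately lower, Cebpg was higher and Cebpz was about level. Cebpd (ENSMUSG00000071637; chromosome 16, 15887286 to 15891031, plus strand) encodes C/EBPdelta, a factor that is usually low and is induced early in the acute phase. Its control values were 30.7, 28.9 and 31.6 FPKM and its labelled values 3.44, 3.55 and 3.44 FPKM. All labelled libraries thus sat between 11.3% and 11.7% of the control mean, with a coefficient of variation of 1.94%, and the third labelled library lay with the others. Cebpd went from place 2080 to place 8791 of 22246 genes. Its mean was 8.75-fold lower (log2 change -2.96, SE 0.04). The authors' table types the gene as a pseudogene and ends its model at 15888466, a length of 1180 bases, whereas GENCODE M21 lists a protein coding gene. Spidr overlaps Cebpd on the opposite strand and stood at 8.87 ± 0.454 and 8.86 ± 0.221 FPKM (SD, n = 3).

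Cebpb (ENSMUSG00000056501; chromosome 2, 167688915 to 167690418, plus strand, protein coding) encodes C/EBPbeta, first known as a nuclear factor for interleukin-6 expression. It was the highest of the 5 C/EBP genes in every library. The controls held 51.3, 53.8 and 51.3 FPKM and the labelled libraries 42.5, 41.4 and 36.9 FPKM, so that every labelled value lay below every control value. The labelled mean was 22.8% lower (log2 change -0.37, SE 0.05). Leaving out the third labelled library, the lowest of the 6, gave -0.31.

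Cebpa (ENSMUSG00000034957; chromosome 7, 35119293 to 35121928, plus strand, protein coding) encodes C/EBPalpha. Control values were 8.24, 7.27 and 7.38 FPKM and labelled values 5.91, 5.54 and 5.04 FPKM, again without overlap. The labelled mean was 28.0% lower (log2 change -0.44, SE 0.07), and the change was -0.38 without the third labelled library.

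Cebpg (ENSMUSG00000056216; chromosome 7, 35046422 to 35056573, minus strand, protein coding) encodes C/EBPgamma, the short partner subunit. It lies 62719 bases from Cebpa on the opposite strand and differed in the opposite direction. Control values were 12.8, 12.8 and 12.4 FPKM and labelled values 16.9, 16.6 and 16.5 FPKM. The labelled mean was 31.8% higher (log2 change 0.39, SE 0.03), and leaving out the third labelled library gave 0.39 again. Cebpg overlaps gene models on both strands, of which only Gm44836 passed the filter, at 1.51 and 1.42 FPKM.

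Cebpz (ENSMUSG00000024081; chromosome 17, 78919006 to 78937066, minus strand, protein coding) did not pass. Its control values were 17.0, 16.9 and 18.4 FPKM and its labelled values 17.9, 18.2 and 17.4 FPKM, which overlap. The log2 change was 0.03 with a 95% confidence interval from -0.06 to 0.12. Ndufaf7, a mitochondrial assembly factor gene that begins 69 bases away on the opposite strand, rose from 10 ± 0.601 to 11.5 ± 0.412 FPKM (SD, n = 3; limma, adjusted p = 0.0156).

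Because FPKM is a level per length, the 4 leucine zipper genes can be set side by side as a pool of mRNA. Their sum was 103 ± 0.238 FPKM (SD, n = 3) in the controls and 65.9 ± 3.59 FPKM (SD, n = 3) in the labelled libraries. Cebpb made up 50.7 ± 1.44% of the control pool and 61.0 ± 1.26% of the labelled pool. The share of Cebpd went from 29.6 ± 1.35% to 5.28 ± 0.278% and that of Cebpg from 12.3 ± 0.237% to 25.4 ± 1.19%. Cebpa held 7.42 ± 0.503% and 8.33 ± 0.237%. The shares of Cebpb and Cebpa rose in a smaller pool, although their mean levels were 22.8% and 28.0% lower. The order of levels in the controls was Cebpb, Cebpd, Cebpg and Cebpa, and in the labelled libraries Cebpb, Cebpg, Cebpa and Cebpd. No neighbours in either order overlapped in their 3 values. The ratio of Cebpg to Cebpd mRNA was 0.417 ± 0.0257 in the controls and 4.80 ± 0.112 in the labelled libraries, and that of Cebpb to Cebpd was 1.72 ± 0.126 and 11.6 ± 0.825. These are shares of mRNA and say nothing of protein or of dimers, and they were not tested because they derive from the values that chose the genes.

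**Figure D3:**
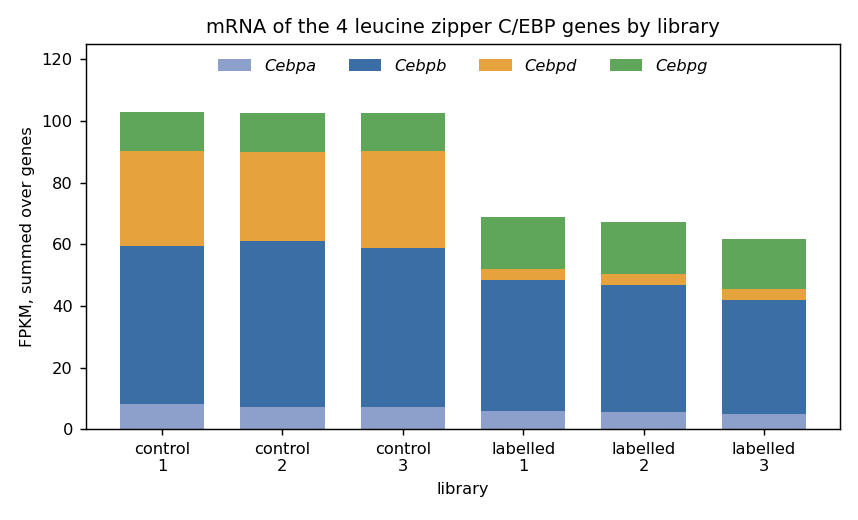
Stacked FPKM of Cebpa, Cebpb, Cebpd and Cebpg in each library, on a linear axis from 0. The control bars reach about 103 FPKM with a broad Cebpd band (29.6% on average), and the labelled bars average 65.9 FPKM with a narrow one (5.28%).

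Genes whose profile over the 6 libraries lay nearest to each member, by the root mean square difference of log2(FPKM + 0.5) from the control mean among 7513 genes, were named by rule. Cebpd was nearest to the neurofilament gene Nefl (difference 0.0565; 35.3 and 3.99 FPKM) and then to Chrnd, a muscle acetylcholine receptor subunit (0.120). Cebpg was nearest to Sept8, a septin (0.0150; 41.0 and 54.1 FPKM), and Fads1, a fatty acid desaturase (0.0157). Cebpb was nearest to Prr13 and Acap3, Cebpa to Phf13 and Zbtb4, and Cebpz to Cxxc1 and Mesd, all within 0.0408. No gene came close to Saa3, whose nearest were Cck at 1.35 and Cxcl5 at 1.57, and C3 was nearest to Dcn at 0.397 and Igfbp2 at 0.416. With 3 libraries a group such likeness mainly reflects a similar change.

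Other acute phase proteins were mostly too low to test, and those tested were lower. Of 26 listed, 16 were in the table and 2 passed the filter, both of which fell. Over all genes tested, 23.3% passed as lower and 25.1% as higher. Cp, which encodes the copper-carrying ferroxidase ceruloplasmin, fell from 11.7 ± 0.255 to 3.37 ± 0.195 FPKM (SD, n = 3; log2 change -1.65, standard error 0.05; limma, adjusted p = 1.3e-07). Lbp, the lipopolysaccharide-binding protein gene, fell from 7.12 ± 0.198 to 2.90 ± 0.158 FPKM (limma, adjusted p = 9.7e-07). Tnfaip6, a hyaluronan-binding protein gene induced by tumour necrosis factor, was under the filter, at 1.25 ± 0.0721 and 0.159 ± 0.0400 FPKM, and was called lower on recovered reads (edgeR, adjusted p = 1.4e-09). The pentraxin gene Ptx3 was at 15 reads in each control library and at 1, 1 and 0 reads in the labelled ones (edgeR, adjusted p = 2.6e-06). Saa2, a liver-type serum amyloid A gene with a near-identical relative, had 1 to 5 control reads and 0 labelled reads. Il1rn, the interleukin-1 receptor antagonist gene, was at 0.424 and 0.490 FPKM. Other genes under the filter lay higher in the labelled libraries. Hpx was at 0.168 and 0.313 FPKM, with groups that did not overlap, and Serpina3n at 0.129 and 0.212 FPKM, with overlap. Neither Hpx, Serpina3n nor Il1rn was called in edgeR.

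Most complement genes tested were lower. Of the 25 found, 9 were tested, 6 of which passed as lower, 1 as higher and 2 did not pass, against 48.3% called among all genes (23.3% lower, 25.1% higher). The median log2 change was -0.42, beside 0.02 over all genes tested. The membrane regulator gene Cd55, whose product speeds decay of the C3 convertase, fell from 3.77 ± 0.199 to 0.496 ± 0.131 FPKM (limma, adjusted p = 2.1e-06), and it passed the filter through its control values alone. The serine protease gene C1s1 of the classical pathway fell from 36.2 ± 0.678 to 15.5 ± 0.235 FPKM (limma, adjusted p = 4.3e-08). Its partner C1ra was at 15.7 and 9.53 FPKM and the lectin pathway protease gene Masp1 at 16.9 and 12.5 FPKM, both called lower. C3ar1, the receptor gene for the C3a fragment, rose from 0.864 ± 0.0421 to 1.44 ± 0.154 FPKM (limma, adjusted p = 0.00309), and it passed the filter through its labelled values alone. Cfp and Cr1l did not pass, at 1.81 and 2.31 FPKM and at 6.62 and 6.77 FPKM. The log2 change of Cfp was 0.42 and passed without the third labelled library (limma, adjusted p = 0.00815).

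Iron-storage genes were the largest risers among receptors and partners of the acute phase proteins. Of 8 tested, 4 passed as higher, 3 as lower and 1 did not pass, against 25.1% higher and 23.3% lower among all genes. The ferritin chain genes Fth1 and Ftl1, which store iron inside the cell, rose from 2337 ± 46.0 to 3398 ± 90.9 FPKM and from 1867 ± 25.9 to 2996 ± 79.7 FPKM (limma, adjusted p = 7.1e-06 and 1.5e-06). Both have many pseudogenes, which makes their values less certain. The transferrin receptor gene Tfrc (26.6 to 31.7 FPKM) and the haem oxygenase gene Hmox1 (17.3 to 20.4 FPKM) rose less. Tlr2, a receptor that binds serum amyloid A, fell from 4.13 ± 0.164 to 1.99 ± 0.196 FPKM (limma, adjusted p = 2.6e-05). The fall of Tlr4 from 14.9 to 13.7 FPKM (limma, adjusted p = 0.0250) was not called without control library 1 or 2, without the first labelled library, after quantile normalization or with a replicate block, with adjusted p of 0.0507 to 0.0817. The scavenger receptor gene Scarb1 fell from 6.78 to 6.06 FPKM. Lrp1, an endocytic receptor gene, did not pass at 191 and 203 FPKM, but was called higher in edgeR (adjusted p = 0.0278) and without the third labelled library (limma, adjusted p = 0.0255). The lipocalin receptor gene Slc22a17 was under the filter at 0.161 and 0.0913 FPKM.

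Inducers and transducers of the acute phase response were mostly lower. Of 22 tested, 16 passed as lower, 2 as higher and 4 did not pass. Over all genes tested, 23.3% passed as lower and 25.1% as higher. The median log2 change of the list was -0.50, beside 0.02 over all genes tested. Il6, the main inducer of acute phase genes in liver, fell from 3.18 ± 0.163 to 0.0387 ± 0.0163 FPKM (limma, adjusted p = 3.2e-07), from 175 to 207 reads to 1 to 3. It passed the filter through its control values alone. Nfkbiz, an inducible NF-kB cofactor that is needed with C/EBP factors for Lcn2 transcription, fell from 10.6 ± 0.322 to 2.18 ± 0.281 FPKM (limma, adjusted p = 3.9e-07). Zc3h12a, which encodes the ribonuclease Regnase-1 that degrades Il6 mRNA, fell from 17.4 ± 0.0589 to 4.52 ± 0.0836 FPKM (limma, adjusted p = 8.9e-09). Nfkbia, the NF-kB inhibitor gene that NF-kB itself induces, fell from 47.6 ± 0.993 to 13.2 ± 0.826 FPKM (limma, adjusted p = 5.8e-08). Stat3, the transcription factor downstream of interleukin-6, stood at 18.8 and 10.7 FPKM, and its feedback inhibitor gene Socs3 at 26.3 and 17.9 FPKM, both called lower. The oncostatin M receptor gene Osmr (8.06 to 3.22 FPKM) and the leukaemia inhibitory factor receptor gene Lifr (3.84 to 1.74 FPKM) fell, and the shared subunit gene Il6st fell less, from 21.3 to 16.4 FPKM. Il6ra (4.11 to 4.96 FPKM) and the interleukin-1 receptor gene Il1r1 (7.78 to 9.46 FPKM) rose. Jak1, at 24.2 and 23.6 FPKM, and the glucocorticoid receptor gene Nr3c1, at 15.0 and 15.4 FPKM, did not pass. Il1a, Tnf and Bcl3 lay under the filter, at 0.897, 0.769 and 1.48 FPKM in the controls and 0.00816, 0.125 and 0.106 FPKM in the labelled libraries, and edgeR called all 3 lower on recovered reads.

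Dimer partners and regulators of C/EBP proteins changed in both directions. Of 14 tested, 8 passed as lower (57.1%), 3 as higher (21.4%) and 3 did not pass, where 23.3% and 25.1% of all genes did so. Their median log2 change was -0.42. The genes called higher were Atf5 (126 to 256 FPKM), the pseudokinase gene Trib3 (34.6 to 64.1 FPKM) and Ddit3 (24.8 to 32.5 FPKM), which encodes the C/EBP relative CHOP (limma, adjusted p from 1.7e-07 to 0.000145). Trib2, a pseudokinase gene whose product directs C/EBPalpha to degradation, fell from 2.41 ± 0.166 to 0.588 ± 0.0442 FPKM (limma, adjusted p = 6.2e-06), having passed the filter through its control values alone. Its relative Trib1 fell from 6.79 to 4.87 FPKM. Cop1, the ubiquitin ligase gene of that pathway, did not pass at 4.66 and 4.75 FPKM, nor did Atf4 at 208 and 216 FPKM. The activator protein genes Junb (101 to 50.2 FPKM) and Jun (log2 change -0.42) fell, as did the leucine zipper genes Nfil3, Dbp and Tef. Hlf, a relative of Dbp and Tef, was under the filter at 0.816 and 0.214 FPKM and was called lower in edgeR.

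**Figure D4:**
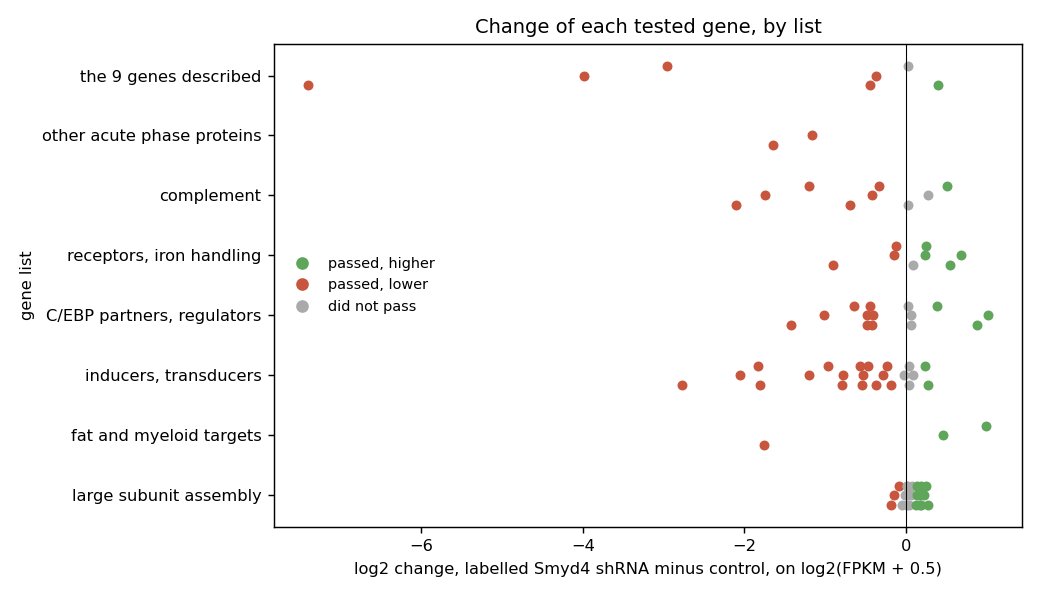
Log2 change of every tested gene of each list, labelled Smyd4 shRNA minus control, coloured by whether it passed limma's adjusted p of 0.05. Inducers and transducers lie mostly to the left of 0 (16 of 22 lower), and the genes listed under large subunit assembly lie within a narrow band around it.

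Known C/EBP targets of fat and myeloid cells gave few tested genes. Of the 10 found, 3 were tested. The lipase gene Lpl fell from 6.90 ± 0.286 to 1.70 ± 0.261 FPKM (limma, adjusted p = 1.8e-06). Pparg, the fat cell regulator that C/EBPalpha maintains, rose from 4.5 ± 0.399 to 6.37 ± 0.365 FPKM, and the lipolysis inhibitor gene G0s2 from 16.1 ± 1.02 to 32.6 ± 2.43 FPKM (limma, adjusted p = 0.000919 and 8.0e-06). Fabp4, a defining fat cell marker, had at most 2 reads per library. Lyz2, a lysozyme gene of myeloid and lung cells, had 6 to 9 control reads and 18, 25 and 98 labelled reads, the highest in the third labelled library. Camp, an antimicrobial peptide gene of neutrophils, stood at 0.615 and 0.0511 FPKM, also under the filter.

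Ribosome assembly genes listed with Cebpz, mainly of the large subunit, changed by small amounts. Of 22 tested, 10 passed as higher, 3 as lower and 9 did not pass. The share called was 59.1%, against 48.3% of all genes. By direction, 45.5% passed as higher and 13.6% as lower, against 25.1% and 23.3% of all genes. Their median log2 change was 0.07. Of the NOC genes, named for nucleolar complexes, Noc3l rose from 9.51 ± 0.383 to 11.2 ± 0.749 FPKM (limma, adjusted p = 0.00914), and Noc2l, at 31.0 and 30.8 FPKM, and Noc4l, at 15.7 and 15.8 FPKM, did not pass. The histone chaperone gene Npm1 (315 to 355 FPKM), Wdr12 (5.09 to 6.23 FPKM) and Rrs1 (43.5 to 49.9 FPKM) rose, and Bop1, which forms a complex with Wdr12 and Pes1, fell from 66.1 to 59.7 FPKM. Pes1 did not pass at 39.2 and 40.2 FPKM, nor did Rrp1 at 143 and 144 FPKM.

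Markers of other cell types known to make acute phase proteins were compared in the same way. Neutrophil markers summed to between 0.707 and 0.935 FPKM in the controls and between 0.0522 and 0.142 FPKM in the labelled libraries, all 4 under the filter. Camp made up most of that sum, with 8, 14 and 12 control reads and 2, 1 and 0 labelled reads, and Mpo was at 0 reads in 5 of 6 libraries. Hepatocyte markers summed to 0.221 to 0.358 FPKM and 0.387 to 0.594 FPKM, with Apoa1 at 0 reads in every labelled library, Afp at 0.271 and 0.457 FPKM and Cps1 at 0.0049 and 0.0326 FPKM. Macrophage markers summed to 2.28 to 2.46 FPKM and 2.47 to 6.07 FPKM. The highest sum was that of the third labelled library, where Lyz2 stood at 3.74 FPKM. Ptprc, the defining leukocyte gene, had 0 reads in 5 libraries and 7 in the third labelled library. Of 10 fibroblast markers 6 were tested, of which 2 passed as higher (33.3%), 3 as lower (50%) and 1 did not pass. Over all genes tested, 25.1% passed as higher and 23.3% as lower. The matrix proteoglycan gene Dcn fell from 26.3 to 1.72 FPKM and the fibronectin gene Fn1 from 337 to 214 FPKM, while the collagen gene Col1a1 rose from 37.6 to 69.3 FPKM (limma, adjusted p = 9.2e-08, 6.8e-07 and 1.6e-06). Lum, Thy1 and Tcf21 were under 0.1 FPKM in every library. Endothelial markers summed to 0.133 to 0.179 FPKM and 0.0498 to 1.19 FPKM, the highest again in the third labelled library. Cldn5, a tight junction gene, had 17 reads in that library and 0 elsewhere. The 3 negative acute phase genes found, Rbp4, Apoa1 and Gc, had at most 3 reads per library, and the adipocyte marker Cfd had at most 8. In bulk RNA, fewer cells that express a gene and less RNA per cell cannot be told apart, and the part of such cells in the results above was not tested.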

How the data were processed

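RNA was extracted with Trizol and libraries were made with Illumina protocols, per the labels' protocols; strand use, counter and annotation: not given in the sources used here. TopHat2 2.0.9, Bowtie2 2.0.6 and the build GRCm38 stand in the submitters' processing notes. The authors deposited FPKM for 22246 genes and a table of 5616 called genes with a normalized signal per library, the authors' log2 fold changes and p-values, and gene lengths. The deposited signal is a read count over 1 size factor, since 100.0% of values were whole multiples of 1 step within 0.0001. FPKM carries the same factors, so whole reads were recovered from it and the gene length within 0.01; lengths came from the authors for 5616 genes, from GENCODE M21 for 13309, and were the smallest possible for 3321, whose reads (Cebpz among them) are lower bounds. Symbols matched 22134 genes by Ensembl identifier.

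Groups were compared with limma 3.58.1 (trend) in R 4.3.3 on log2(FPKM + 0.5), which understates changes of low genes, for genes averaging 1 FPKM or more, with Benjamini-Hochberg adjustment over all genes. Folds are ratios of mean FPKM. An edgeR 4.0.16 quasi-likelihood test used recovered reads. The scripts were tested on simulated data. Alternatives were other pseudocounts, filters and scalings, a replicate block, and each library left out. The members and lists were chosen with earlier results of these data known. The rule for named genes took every member, up to 3 genes per direction of each list by adjusted p, the 2 highest that did not pass, and the 2 nearest profiles of each member among genes averaging 5 FPKM or more; a few of these low ones are not described, and other genes were named after their values were seen. Identity between C/EBP proteins was planned and not computed. The read floor covers counting error only. One gene that this rule took is not reported here.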

Additional observations from a re-analysis of the deposited data

How the results depend on the processing

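All 7 tested members kept their direction and their side of the threshold under every alternative that could test them: 14 alternatives for 6 members, and 13 for C3, which a filter on a mean of 5 FPKM removed. The log2 change ranged from -9.10 to -6.63 for Saa3, from -6.23 to -3.20 for C3, from -3.13 to -2.81 for Cebpd, from -0.49 to -0.38 for Cebpa, from -0.41 to -0.31 for Cebpb and from 0.37 to 0.40 for Cebpg. The largest sizes for Saa3 and C3 came from edgeR on recovered reads and from smaller pseudocounts. Over all genes, 4337 to 6824 were called. The other acute phase proteins called lower numbered 6 without a filter and 4 in edgeR, against 2. Complement genes called higher numbered 2 without a filter, 0 with a filter at 5 FPKM, 3 in edgeR and from 1 to 2 with each library left out, against 1, and those called lower numbered 3 with a filter at 5 FPKM, against 6. Inducers called higher numbered 1 with that filter, against 2, and fat and myeloid targets called lower numbered 2 without a filter and 0 with a filter at 5 FPKM, against 1. Small values near 0 changed sign without a call. The log2 change of Rrp1 went from 0.01 to -0.027 after quantile normalization and to -0.0013 after median-of-ratios rescaling, and lay between -0.023 and 0.033 with each library left out. The log2 change of Gja1 lay between -0.012 and 0.0036 with each library left out, the last without the second labelled library. Same-numbered libraries did not deviate together (correlations -0.032, 0.018 and 0.007). With few libraries and no word in the labels, this cannot tell whether same-numbered libraries were prepared together. The fit with a replicate block called 5141 genes against 5474, with 5 members lower and 1 higher as before. Lcn2 and Hp rest on at most 21 reads per library, and the labelled values of Saa3 on at most 4.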

Other observations

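The authors' deposited table gives fold changes for 7 of the 9 genes, and for some of them the listed value is far from the ratio of the means in the same table. For C3 the authors' deposited table lists a log2 fold change of -0.77, whereas the log2 ratio of its own mean normalized signals is -6.10. In the same table the pair is -0.54 and -1.97 for Hp, -6.30 and -9.09 for Saa3 and -2.94 and -3.13 for Cebpd. For Cebpa (-0.45 and -0.47), Cebpb (-0.36 and -0.37) and Cebpg (0.40 and 0.40) the pairs lie within 0.02. The labelled libraries spread widely for C3, with a coefficient of variation of 111%, against 66.4% for Saa3 and 1.94% for Cebpd.

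The tested genes next to Saa3, C3 and Cebpd on the chromosome differed less than these members did. Among these neighbours the largest log2 change was -0.41, for Trip10, 21318 bases from C3, beside -2.96 to -7.40 for the members. Saa2, 36089 bases from Saa3, was under the filter, at 0.223 FPKM in the controls and 0 in the labelled libraries. Limma without a filter on low values called Saa2 lower (adjusted p = 0.0438). Saal1, 1317 bases from Saa3 on the same strand, was slightly higher, at 4.92 and 5.46 FPKM (limma, adjusted p = 0.0271), where Saa3 was at most 0.364 FPKM in the labelled libraries. Gpr108, 6498 bases from C3, stood at 27.4 and 26.5 FPKM, and Txnl4b, 1076 bases from Hp, at 3.96 and 4.45 FPKM. Tmem189, which overlaps Cebpb on the opposite strand, stood at 9.69 and 8.94 FPKM and did not pass.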
